A study of Mus musculus with 12 samples.

Results

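Immediate early and acute stress genes were followed through skin of mice exposed to ticks, as a list of 42 genes chosen by symbol. All 42 were found among the 25070 genes of the deposited table, and all 42 passed the minimum level for testing, against 17172 genes in all. Of the 42, 41 had at least 1 CPM (counts per mega reads: the reads of a gene scaled to a fixed library total) in every library, and Fosl1 did not. The data were RNA sequencing of 12 skin biopsies, taken 4 days after tick attachment. The libraries carry 5 immunization labels: naive skin with no bite (n = 2), first exposure (n = 3), saliva immune (n = 1), ticks 2x (n = 3) and ticks 3x (n = 3). The naive libraries also carry the 4 day note of the bitten ones. The labels give no strain, genotype, age or tick species. They do not say how saliva immunity was raised, whether the sampled infestation counts among the 2x or 3x, or whether each library is a separate animal. The p-values therefore measure the spread between these libraries only, which may be technical. Sample titles start with EF19-4 for first exposure and saliva immune (n = 4) and with EF19-6 for naive, 2x and 3x (n = 8). What that difference in title stands for is not stated, so first exposure and title series cannot be told apart.

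Immediate early genes are transcribed within minutes of a signal, from factors that are already in the cell. Growth factors, stretch, wounding and stress act through MAP kinases on serum response factor and its partners, which bind CArG boxes, and on CREB and ATF proteins, which bind the sequence TGACG. The first products are transcription factors such as AP-1 (FOS and JUN dimers) and EGR proteins, followed by phosphatases and RNA-binding proteins that switch the response off. These RNAs are short-lived, and tissue handling and dissociation are also known to induce them in skin. Heat shock genes answer to a separate factor, HSF1, which binds repeats of GAANNTTC.

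Estimated depth was 12.5 M to 29.8 M (mega) reads per library, so 3 reads, taken as the floor of detection, equalled 0.101 to 0.24 CPM. Every marker list held genes above the floor, and all 11 keratinocyte and all 10 dermal fibroblast markers had at least 1 CPM in each library. Composition varied within groups. The mean of the hair follicle list on log2(CPM + 1) was 9.26, 9.54 and 1.68 in the first exposure libraries, 7.65 and 0.93 in naive skin, 9.09, 2.72 and 0.76 in 2x and 5.18, 6.83 and 0.82 in 3x. First exposure replicates 1 and 2 had the highest hair follicle means of all 12 libraries, close to 2x replicate 1 at 9.09. The same 2 first exposure libraries held the lowest levels of 27 of the 42 members. In 2x replicate 1 the mean of the 42 members on log2(CPM + 1) was 6.84, against 5.35 to 6.61 after first exposure. Counts of called members that rest on first exposure replicates 1 and 2 are given below with and without them.

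Promoters were read for 33 of the 42 members from RefSeq on GRCm38.p6, in windows of 300 bases around the start of transcription. The 250 bases before the start are printed for 5 members that stand for the roles compared: a transcription factor (Fos, chr12:85473640-85473889, plus strand), an RNA-binding brake (Zfp36, chr7:28379229-28379478, minus strand), a phosphatase (Dusp1, chr17:26508473-26508722, minus strand), a secreted matrix protein (Cyr61, called Ccn1 in RefSeq, chr3:145649986-145650235, minus strand) and a heat shock protein (Hspa1a, chr17:34972157-34972406, minus strand). Letters run 5′ to 3′ toward the start, and capitals mark a CArG box, the CREB and ATF letters TGACG, the AP-1 letters TGANTCA, the heat shock letters GAANNTTC or the TATA box TATAAA, on either strand.
Fos: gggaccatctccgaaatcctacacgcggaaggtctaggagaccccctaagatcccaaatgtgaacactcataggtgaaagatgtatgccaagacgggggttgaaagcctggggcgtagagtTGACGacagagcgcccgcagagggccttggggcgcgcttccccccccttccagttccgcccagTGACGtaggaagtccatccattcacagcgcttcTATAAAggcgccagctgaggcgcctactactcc
Zfp36: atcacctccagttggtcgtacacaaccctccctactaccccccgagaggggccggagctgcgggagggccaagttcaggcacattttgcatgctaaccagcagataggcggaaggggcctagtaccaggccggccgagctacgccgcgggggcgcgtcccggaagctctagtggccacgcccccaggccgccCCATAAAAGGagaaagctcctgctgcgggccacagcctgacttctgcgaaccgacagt
Dusp1: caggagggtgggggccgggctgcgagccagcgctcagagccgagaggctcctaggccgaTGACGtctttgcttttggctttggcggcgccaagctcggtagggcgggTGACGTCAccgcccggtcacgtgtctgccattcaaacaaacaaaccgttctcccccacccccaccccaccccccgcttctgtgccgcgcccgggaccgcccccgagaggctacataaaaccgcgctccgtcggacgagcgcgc
Cyr61: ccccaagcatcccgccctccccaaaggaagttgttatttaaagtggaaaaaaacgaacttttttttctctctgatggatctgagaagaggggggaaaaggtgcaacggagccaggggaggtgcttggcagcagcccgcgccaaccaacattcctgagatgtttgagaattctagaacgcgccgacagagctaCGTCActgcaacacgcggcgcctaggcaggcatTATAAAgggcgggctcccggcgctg
Hspa1a: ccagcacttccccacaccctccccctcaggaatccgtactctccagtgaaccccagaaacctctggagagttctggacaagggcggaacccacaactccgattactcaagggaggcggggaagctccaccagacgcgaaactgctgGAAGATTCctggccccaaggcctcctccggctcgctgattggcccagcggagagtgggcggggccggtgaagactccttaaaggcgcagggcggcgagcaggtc

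In Zfp36 the CArG box starts 58 bases before the start of transcription. Fos held TGACG 129 and 66 bases before its start and TATAAA 33 bases before it. In Dusp1 the pair of matches at 143 and 140 bases overlap in 1 palindrome, TGACGTCA. Hspa1a held GAAGATTC, 104 bases before its start, and none of the other motifs. Over the whole windows, TGACG was present in 19 of 33 members (57.6%), against 32.2% of the 12136 tested genes with a window. A CArG box was present in Dusp5, Egr2 and Zfp36 (9.09%, against 1.61%), and TGACGTCA, which contains TGACG, in Btg2, Dusp1 and Maff (9.09%, against 3.19%). TGANTCA, the usual AP-1 site, was found in Csrnp1 (3.03%, against 7.28%). GAANNTTC was found in Fosl2, Hspa1a, Hspa1b and Jun (12.1%, against 7.29%), and TATAAA in 6 members (18.2%, against 10.8%). These shares describe letters in a window, not binding.

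The members varied largely together from library to library. Their mean on log2(CPM + 1) was 7.07 and 7.91 in naive skin, 5.57, 5.35 and 6.61 after first exposure, 5.73 in the saliva immune library, 6.84, 7.32 and 6.88 in 2x, and 6.90, 7.19 and 6.56 in 3x. Naive replicate 2, the shallowest library, was the highest library for 29 of the 42 members. Apart from first exposure replicate 3, which lay above 3x replicate 3, every EF19-4 library had a lower member mean than every EF19-6 library.

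**Figure D1:**
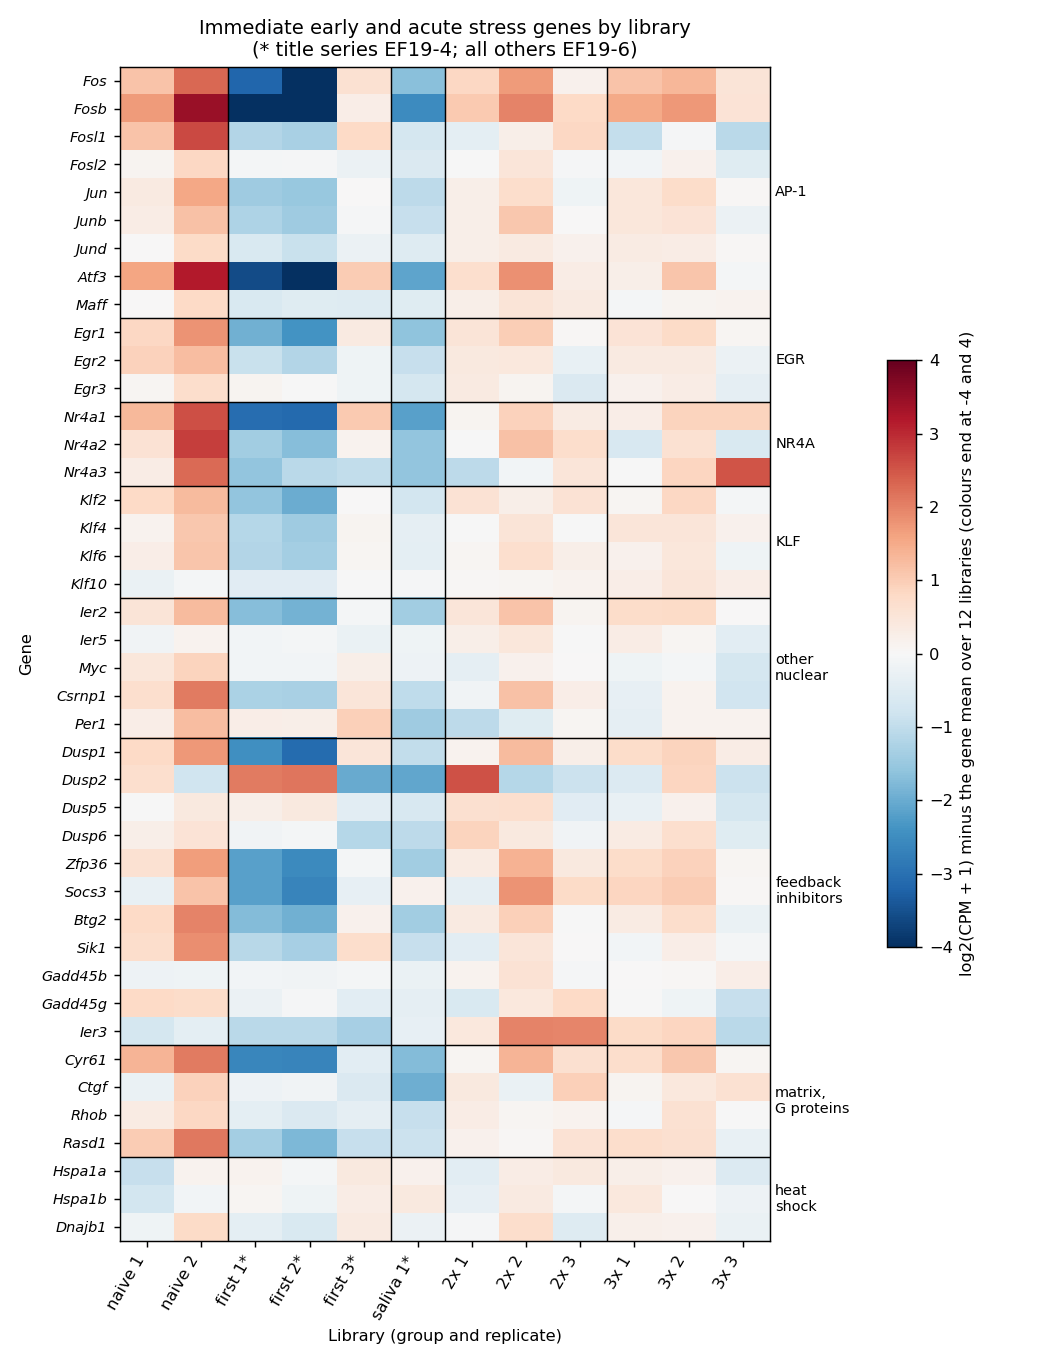
Level of each of the 42 members (rows, grouped by role) in each of the 12 libraries (columns), as log2(CPM + 1) minus the mean of the gene, with starred libraries from title series EF19-4. First exposure replicates 1 and 2 are low for most members but not for Dusp2, Hspa1a or Hspa1b, and naive replicate 2 is the highest library for 29 members.

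AP-1 factors, which pair as FOS and JUN dimers on TGANTCA, held the widest differences. Fos was at 1518 and 3383 CPM in naive skin, 76, 23.4 and 1055 after first exposure, 219 in the saliva immune library, 1222, 2248 and 782 in 2x and 1533, 1758 and 995 in 3x. Fosb was at 879 and 2933 CPM in naive skin, 13.9, 2.28 and 324 after first exposure, 45.4 in saliva immune, 554, 1049 and 463 in 2x and 769.9, 882 and 389 in 3x. For Fosb every EF19-4 library lay below every EF19-6 library, whereas for Fos first exposure replicate 3 lay inside the EF19-6 range. Atf3, a stress-induced bZIP factor, was at 408 and 1216 CPM in naive skin, 10.3, 6.74 and 272 after first exposure, 30.7 in saliva immune, 217, 481 and 165 in 2x and 160.4, 293 and 129 in 3x. JUN partners had the same order with smaller differences. Jun was at 427 and 979 CPM in naive skin, 123, 114 and 339.8 after first exposure, 160.5 in saliva immune, 396, 546 and 297 in 2x and 455, 559 and 347 in 3x. Junb was at 463 and 851 CPM in naive skin, 161, 141 and 367 after first exposure, 200.3 in saliva immune, 447, 793 and 384 in 2x and 516, 547 and 320.0 in 3x. In both, first exposure replicate 3 overlapped the EF19-6 libraries. Jund, the member of the JUN family that most tissues make steadily, was at 249.9 and 422 CPM in naive skin, 159, 132 and 209 after first exposure, 172 in saliva immune, 289, 317 and 277 in 2x and 310.0, 300.0 and 252 in 3x. Maff, a small MAF protein, was at 24.1 and 42.1 CPM in naive skin, 15.4, 17 and 16.5 after first exposure, 16.9 in saliva immune, 28.1, 34.8 and 31.2 in 2x and 22.7, 26.2 and 26.5 in 3x. For Jund and Maff the libraries of the title series did not overlap. The FOS relatives Fosl1 and Fosl2 ranged from 0.588 to 23.6 CPM and from 207 to 538 CPM.

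The EGR zinc finger factors, activated through serum response factor, were uneven. Egr1 was at 1282 and 2499 CPM in naive skin, 189.9, 137 and 922 after first exposure, 235 in saliva immune, 1020.0, 1420.2 and 733 in 2x and 1037, 1215 and 753 in 3x. Egr2 was at 185 and 229.7 CPM in naive skin, 52.3, 42.6 and 85.9 after first exposure, 51 in saliva immune, 127, 130.2 and 78.7 in 2x and 125, 123 and 81.4 in 3x. Egr3 was at 191 and 299 CPM in naive skin, 196, 179.9 and 162 after first exposure, 112 in saliva immune, 233, 196 and 121 in 2x and 208, 224 and 143 in 3x. Naive skin held the highest Egr2 levels, above all 10 bitten libraries. For Egr3 the saliva immune library lay below all others, and the other groups overlapped throughout.

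The NR4A orphan nuclear receptors, which act without a known hormone, differed in which library stood out. Nr4a1 was at 569 and 1391 CPM in naive skin, 27.2, 25.9 and 475 after first exposure, 50.1 in saliva immune, 249, 443 and 287 in 2x and 278, 431 and 434 in 3x. Nr4a2 was at 16.4 and 79.4 CPM in naive skin, 3.43, 2.56 and 11.9 after first exposure, 2.92 in saliva immune, 10.6, 25.2 and 17.9 in 2x and 6.52, 16.9 and 6.72 in 3x. Nr4a3 was at 25.2 and 101 CPM in naive skin, 6.08, 8.97 and 9.75 after first exposure, 6.08 in saliva immune, 9.19, 18.5 and 28.4 in 2x and 19.8, 37.3 and 120.3 in 3x. Nr4a3 peaked in 3x replicate 3, a library that was the lowest EF19-6 library for the member mean.

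Among the KLF factors, Klf2 is best known in endothelium and quiescent lymphocytes, Klf4 in the skin barrier, Klf6 in injury and Klf10 downstream of TGF-beta. Klf2 was at 112 and 154 CPM in naive skin, 20.8, 15.3 and 64.1 after first exposure, 37.4 in saliva immune, 95.6, 75.8 and 95.9 in 2x and 67.3, 113 and 60.7 in 3x. Klf4 was at 843 and 1601 CPM in naive skin, 346, 284 and 818 after first exposure, 592 in saliva immune, 749.5, 1073 and 747 in 2x and 1051, 1050.3 and 852 in 3x. Klf6 was at 455 and 807 CPM in naive skin, 168, 145 and 398 after first exposure, 289 in saliva immune, 398, 600.1 and 443 in 2x and 424, 516 and 336 in 3x. In these genes first exposure replicate 3 overlapped the EF19-6 libraries and the other EF19-4 libraries lay below them. Klf10 ran another way, at 56.4 and 63.8 CPM in naive skin, 49.7, 49.2 and 67.8 after first exposure, 64.9 in saliva immune, 70.3, 70.9 and 75.6 in 2x and 82.6, 95.3 and 82.2 in 3x. All 3x libraries lay above all 2x libraries, and those above both naive ones.

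Of the other nuclear regulators, Ier2 was at 209.8 and 360.1 CPM in naive skin, 44.4, 39.6 and 142 after first exposure, 55.8 in saliva immune, 209.6, 328 and 159 in 2x and 247, 252 and 150.3 in 3x, with no overlap between the title series. Csrnp1, a nuclear protein induced by AXIN and cytokines, was at 89 and 236 CPM in naive skin, 22.5, 22 and 77.5 after first exposure, 27.1 in saliva immune, 49.8, 125 and 66.6 in 2x and 43.6, 60.8 and 32.4 in 3x. Its first exposure replicate 3 lay above all 3x libraries. Per1, a clock gene that is also glucocorticoid-inducible, was at 112 and 219 CPM in naive skin, 111, 108 and 180.3 after first exposure, 34.1 in saliva immune, 43.7, 65.2 and 96.6 in 2x and 72.4, 101 and 102 in 3x. Every repeat exposure library was below every first exposure and naive library for Per1. Ier5 ranged from 50.8 CPM in 3x replicate 3 to 93.5 CPM in 2x replicate 2. All 2x libraries lay above all first exposure libraries, and the naive and 3x libraries overlapped both groups. Myc, a growth factor response gene, was at 79.1 and 106 CPM in naive skin and between 34.7 and 67 CPM in the bitten libraries, with no overlap.

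The feedback inhibitors include DUSP phosphatases that inactivate MAP kinases, ZFP36, which speeds the decay of AU-rich mRNAs, BTG2, which recruits deadenylases, and SOCS3, which blocks cytokine signalling through JAK kinases. Dusp1 was at 744 and 1425 CPM in naive skin, 76.3, 49.4 and 592 after first exposure, 214 in saliva immune, 469, 1022 and 502 in 2x and 705, 793 and 521 in 3x. Zfp36 was at 683 and 1427 CPM in naive skin, 97.3, 75 and 426 after first exposure, 170.4 in saliva immune, 555, 1181 and 588 in 2x and 747, 854 and 471 in 3x. Btg2 was at 488 and 1096 CPM in naive skin, 82.5, 72.8 and 317 after first exposure, 106 in saliva immune, 358, 545 and 279 in 2x and 348, 451 and 233 in 3x. Zfp36 separated the title series without overlap, and the first exposure replicate 3 values of Dusp1 and Btg2 lay inside the EF19-6 range. Socs3 was at 107 and 288 CPM in naive skin, 28.2, 19.8 and 103 after first exposure, 147 in saliva immune, 102, 456 and 220.2 in 2x and 235, 263 and 136 in 3x, so the saliva immune library lay above all 3 first exposure libraries.

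Several feedback genes did not follow the others. Dusp2, a phosphatase best known in activated leukocytes, was at 12.7 and 3.91 CPM in naive skin, 35.2, 36.9 and 1.12 after first exposure, 1.05 in saliva immune, 48.9, 2.85 and 3.72 in 2x and 4.87, 14.6 and 3.74 in 3x. All 5 libraries in which Dusp2 was above 10 CPM were those with hair follicle means of 6.83 or more. The part of hair in the Dusp2 levels was not tested. Ier3, which modulates survival and NF-kB signalling, was at 24.7 and 30.9 CPM in naive skin, 18.7, 19.1 and 15.6 after first exposure, 32.5 in saliva immune, 55, 166 and 161 in 2x and 70.6, 75.5 and 18.9 in 3x. Summed over 10 neutrophil markers, the level came to 29.7, 488 and 169.6 CPM in those 2x libraries and to 88.5, 65.7 and 14.4 CPM in 3x. It came to 19.1 to 32 CPM after first exposure, 89.5 CPM in saliva immune and 23 to 65.8 CPM in naive skin. The part of these markers in Ier3 was not tested. Sik1 and Gadd45g ranged from 68.9 to 634 CPM and from 11.8 to 41.7 CPM. Gadd45b stayed between 17.2 and 31.4 CPM, Dusp5 between 6.47 and 18.6 CPM and Dusp6 between 36.9 and 153 CPM.

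Cyr61, a secreted matricellular protein induced by stretch and YAP signalling, lay at 515 and 853 CPM in naive skin, 32.1, 31.4 and 149 after first exposure, 59.9 in saliva immune, 209.5, 509 and 313 in 2x and 325, 420.4 and 212 in 3x. Its EF19-4 libraries were all below its EF19-6 libraries, and both naive libraries were above all bitten ones. Ctgf, its close relative, was at 53.9 and 124 CPM in naive skin, 56.8, 58.3 and 43.6 after first exposure, 16 in saliva immune, 86.3, 53.5 and 128 in 2x and 70.4, 87.2 and 99 in 3x, with overlap. Rhob, an immediate early small GTPase, was at 197 and 281 CPM in naive skin, 119, 104 and 121 after first exposure, 82.7 in saliva immune, 191, 166 and 172 in 2x and 152, 239.6 and 155 in 3x. Rasd1, a RAS-like protein induced by dexamethasone and encoded on GRCm38.p6 at chr11:59963181-59964944, was at 20.9 and 46.3 CPM in naive skin, 3.22, 2.12 and 4.74 after first exposure, 4.99 in saliva immune, 11.4, 10.1 and 15.1 in 2x and 16.8, 16.2 and 7.82 in 3x. In Rhob and Rasd1 no EF19-4 library reached the lowest EF19-6 library. For Rasd1 both naive libraries also lay above every bitten one.

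The heat shock genes, whose proteins refold damaged proteins, were not separated by group or title series. Hspa1a was at 55.8 and 119.5 CPM in naive skin, 119, 103 and 142 after first exposure, 121 in saliva immune, 80.7, 132 and 141 in 2x and 126, 119.9 and 73.1 in 3x. Hspa1b was at 154 and 238 CPM in naive skin, 267, 227 and 317 after first exposure, 334 in saliva immune, 204, 331 and 243 in 2x and 342, 259 and 223 in 3x. These neighbours are near-identical copies, so how reads were divided between them is uncertain. Dnajb1, an HSP40 partner of HSP70, was at 129 and 249 CPM in naive skin, 112, 95.9 and 189 after first exposure, 125 in saliva immune, 140.2, 241 and 103 in 2x and 170.1, 164 and 122 in 3x. Groups overlapped in all 3 genes, leaving aside the single saliva immune library.

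**Figure D2:**
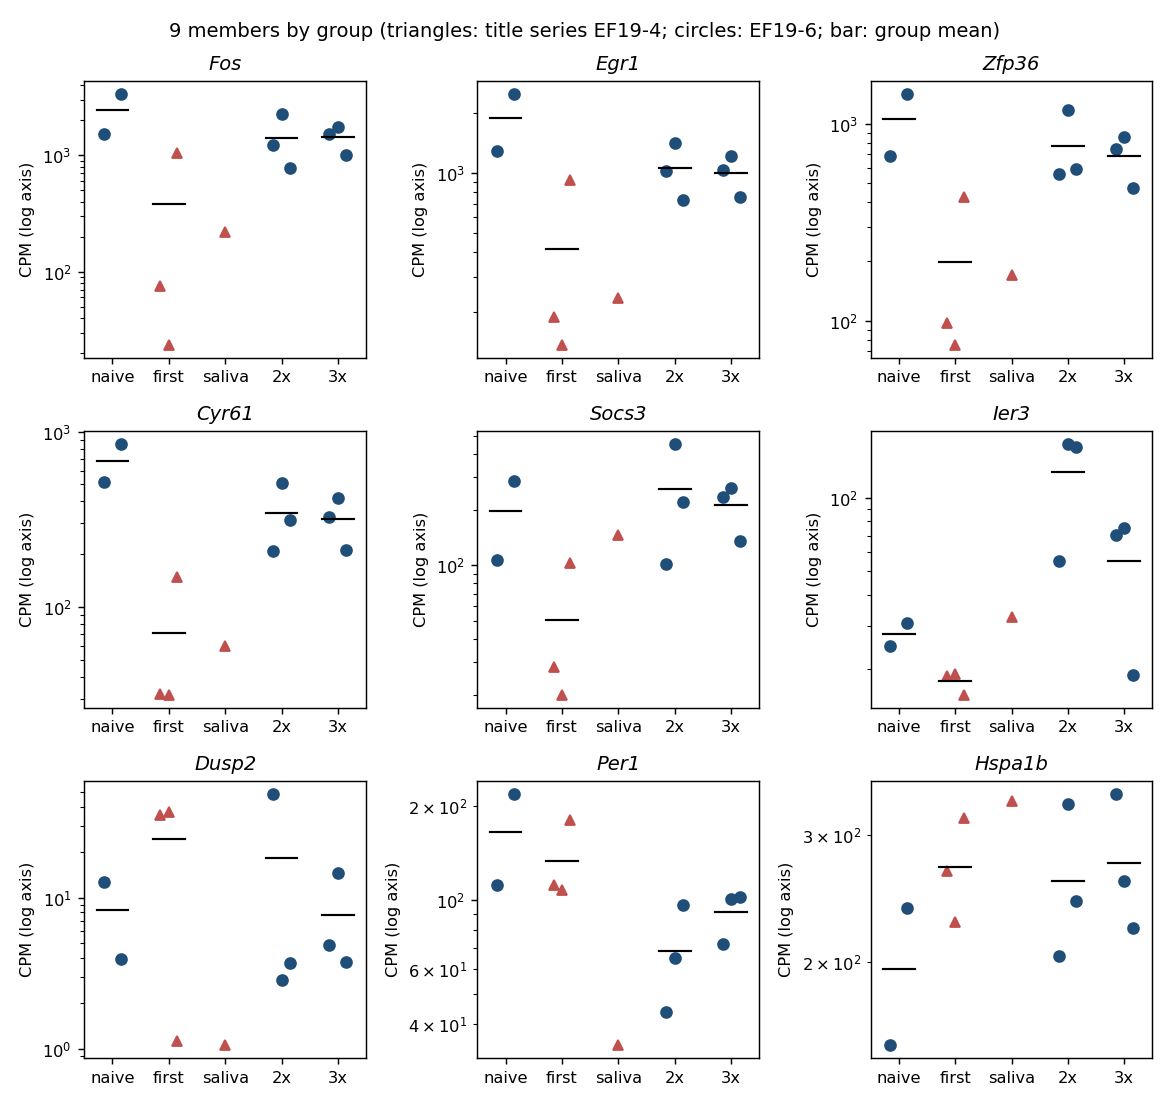
CPM on a log axis of 9 members in each library, by group, with triangles for title series EF19-4, circles for EF19-6 and bars for group means. In Fos, Egr1, Zfp36 and Cyr61, first exposure replicates 1 and 2 and the saliva immune library lie lowest, while Ier3 is highest in 2x, Dusp2 follows neither division, and Per1 and Hspa1b differ in order.

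The first question is whether repeat exposure changed the genes relative to unbitten skin, within title series EF19-6. No member passed an adjusted p of 0.05 in 2x against naive (limma with Benjamini-Hochberg adjustment, 0 of 42 higher against 0% of all genes tested and 0 lower against 0.0352%). At an unadjusted p below 0.05, 5 members were lower (5.23% of all genes) and 1 was higher (5.71% of all genes). The median log2 fold change of the 42 was -0.45. Ier3 had the lowest adjusted p, with a log2 fold change of 2.00 ± 0.61 (SE, adjusted p = 0.328), and all 3 2x libraries lay above both naive libraries. Per1 was at -1.25 ± 0.39 (SE, adjusted p = 0.331), Rasd1 at -1.30 ± 0.42 (adjusted p = 0.342) and Myc at -0.73 ± 0.24 (adjusted p = 0.343). Libraries of the groups did not overlap for 10 members in the lower direction (12.8% of all genes) and for 3 in the higher (14.7%), Ier3, Gadd45b and Klf10.

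In 3x against naive, which shares the naive libraries with the comparison above, 0 of 42 passed in either direction (0.00586% of all genes higher and 0% lower). Unadjusted, 8 members were lower (2.12% of all genes) and 1 was higher (4.83%), with a median of -0.54. Myc was at -0.99 ± 0.24 (adjusted p = 0.434), Fosl1 at -2.58 ± 0.70 (adjusted p = 0.516) and Klf10 at 0.52 ± 0.16 (adjusted p = 0.592). Libraries did not overlap for 13 members lower (9.57% of all genes) and for 2 higher (15.5%), Klf10 and Gadd45b. Both medians turned on the naive libraries: without naive replicate 1 they were -0.78 for 2x and -0.97 for 3x, and without naive replicate 2 they were -0.10 and -0.14. The 3x and 2x libraries themselves differed by a median of -0.09, with 0 of 42 called (0% of genes in each direction) and at an unadjusted p 0 higher (3.56% of genes) and 1 lower (1.58% of genes), Ier3 at -1.27 ± 0.55 (adjusted p = 0.894). Only Klf10 (1 higher, 7.3% of genes) and Maff (1 lower, 4.41% of genes) had 2x and 3x libraries that did not overlap.

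The second question is how skin looked after a first bite, which crosses the title series. First exposure held lower levels than naive skin for 38 of 42 members (42% of genes), with a median log2 fold change of -1.56 against 0.08 over all genes. At the adjusted threshold 0 of 42 passed (limma, 0.00586% of genes in each direction), and unadjusted 28 were lower (6.31% of genes) and 0 were higher (10.1% of genes). Libraries did not overlap for 31 members in the lower direction (14% of genes) and for 1, Gadd45b, in the higher (21%). Rasd1 was at -2.93 ± 0.42 (SE, adjusted p = 0.0566), Cyr61 at -3.61 ± 0.66 (adjusted p = 0.0756), Egr2 at -1.82 ± 0.33 (adjusted p = 0.0756) and Fosb at -6.00 ± 1.53 (adjusted p = 0.124). Without first exposure replicate 3, the first exposure library with the highest member mean, 22 of the 42 were called (3.54% of all genes in either direction), and without any other single library 0 were called (0% to 0.0176% of genes). In the same comparison the adipocyte list had a median of -1.43, with 11 of 11 below 0, the endothelial list -1.05, with 10 of 10 below 0, and the hair follicle list 2.66, with 20 of 20 above 0; 0 genes of these lists passed the adjusted threshold. Their part in the change was not tested. With the adipocyte mean as a covariate, 0 members and 0% of genes were called. That mean on log2(CPM + 1) was 6.03 to 6.80 after first exposure and 7.56 to 7.96 in naive skin. As it did not overlap, this fit cannot tell adipocyte content from exposure. First exposure, 2x and 3x pooled (n = 9, without the saliva immune library) against naive gave 0 of 42 called (0% of genes higher, 0.041% lower) and, unadjusted, 18 lower (4.73% of genes) and 0 higher (6.42% of genes), with a median of -0.80. Over those 9 and the naive libraries there was no overlap for 7 members lower (3.31% of genes), Cyr61, Egr2, Fosl1, Myc, Nr4a1, Rasd1 and Sik1, and for 1 higher, Gadd45b (4.02% of genes), whose level in the saliva immune library, 17.2 CPM, lay below both naive libraries.

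Repeat exposure, 2x and 3x pooled (n = 6), was higher than first exposure (n = 3) for 2 of 42 members, against 0.246% of all genes, and lower for 0 (0.574% of genes). Cyr61 rose by 2.54 ± 0.49 on the log2 scale (SE, adjusted p = 0.0485) and Rasd1 by 1.67 ± 0.31 (adjusted p = 0.0469), in 6 of 6 repeat libraries above all 3 first exposure libraries. Unadjusted, 26 members were higher (9.35% of genes) and 1, Per1, was lower (11.3% of genes), at -0.74 ± 0.31 (adjusted p = 0.219). Repeat and first exposure libraries did not overlap for 10 members higher (3.07% of genes) and for Per1 lower (5.18% of genes). Fosb was at 4.68 ± 1.12 (adjusted p = 0.0812). The median of the 42 was 0.86, against -0.06 over all genes. The count of 2 rested on single libraries: it was 22 without first exposure replicate 3 (13.3% of all genes in either direction), 1 without either naive library, 0 without first exposure replicate 1 or 2, without any single 2x library or without 3x replicate 1 or 2, and 2 without 3x replicate 3. It was 0 with the hair follicle mean (0.281% of genes in either direction) or the adipocyte mean (0%) as a covariate. The groups compared lie wholly in different title series, and the adipocyte list had a median of 1.09 in the same comparison. The adipocyte mean on log2(CPM + 1) was 6.03 to 6.80 after first exposure and 7.15 to 8.10 in 2x and 3x. As it did not overlap, the covariate fit cannot tell adipocyte content from exposure. The part of the adipocyte list was not tested further.

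**Figure D3:**
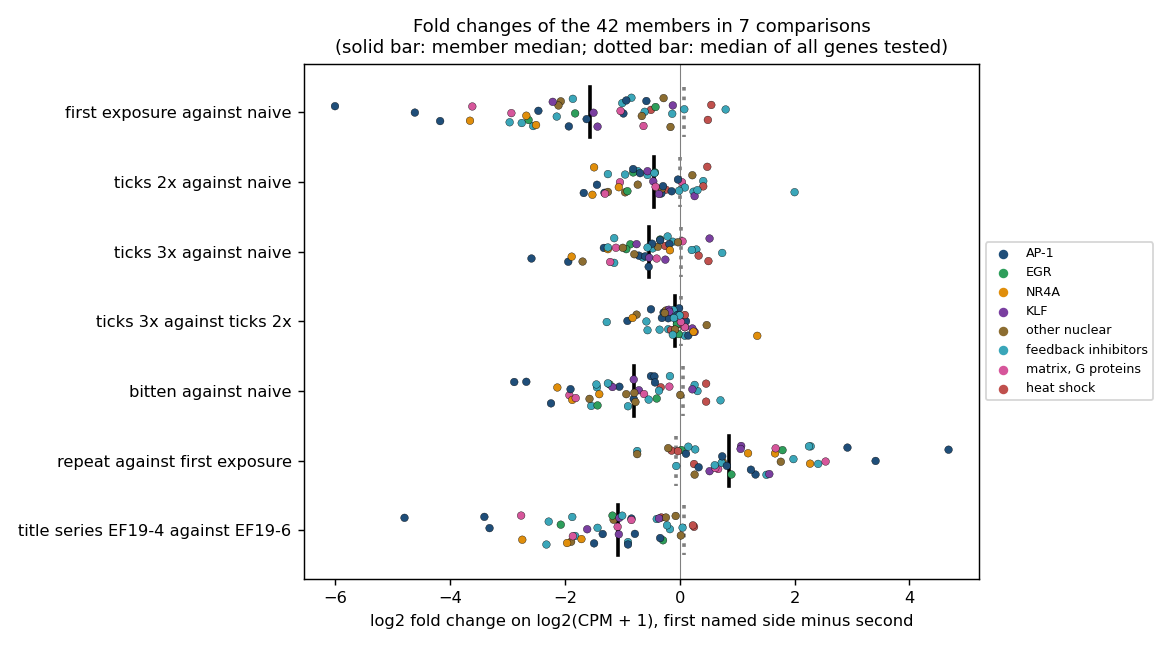
Log2 fold changes of the 42 members (points, coloured by role) in 7 comparisons, on log2(CPM + 1), with solid bars at the member median and dotted bars at the median of all genes tested. Medians lie at -1.56 for first exposure against naive and at -1.07 between the title series, and between -0.54 and -0.09 for the comparisons of naive, 2x and 3x skin.

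Of the 7 comparisons, that of the title series called the most members. In EF19-4, 16 of 42 members were lower than in EF19-6 (limma, adjusted p below 0.05, against 0.757% of all genes) and 0 were higher (2.1%). The 16 were 6 of 9 AP-1 and related factors, 2 of 3 EGR factors, 0 of 3 NR4A receptors, 1 of 4 KLF factors, 1 of 5 other nuclear regulators, 3 of 11 feedback inhibitors, 3 of 4 matricellular and small G proteins and 0 of 3 heat shock genes. The median log2 fold change was -1.07, against 0.07 over all genes, and 38 of 42 lay below 0 (41% of genes). Unadjusted, 29 members were lower (6.04% of genes) and 0 were higher (11.8% of genes). Libraries did not overlap for 8 members in the lower direction (1.09% of genes), Cyr61, Fosb, Ier2, Jund, Maff, Rasd1, Rhob and Zfp36, and for 0 in the higher (2.91%).

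On the log2 scale, EF19-4 minus EF19-6, Cyr61 was at -2.76 ± 0.45 (SE, adjusted p = 0.00841), Zfp36 at -2.32 ± 0.42 (adjusted p = 0.0133), Fosb at -4.79 ± 0.94 (adjusted p = 0.0194) and Fos at -3.40 ± 0.76 (adjusted p = 0.0353). Ier2 was at -1.89 ± 0.33 (adjusted p = 0.0108), Rasd1 at -1.86 ± 0.37 (adjusted p = 0.021), Egr1 at -2.07 ± 0.45 (adjusted p = 0.0319) and Dusp1 at -2.28 ± 0.55 (adjusted p = 0.0464). These genes span transcription factors, brakes and a matrix protein. The other 8 called members, Jund, Maff, Rhob, Klf2, Junb, Jun, Egr2 and Btg2, lay between -1.82 and -0.78. Just outside the threshold were Nr4a1 at -2.74 ± 0.69 (adjusted p = 0.0584) and Atf3 at -3.31 ± 0.85 (adjusted p = 0.0615). Hspa1a was at 0.25 ± 0.24 (adjusted p = 0.596), Hspa1b at 0.23 ± 0.20 (adjusted p = 0.563) and Per1 at 0.02 ± 0.44 (adjusted p = 0.986).

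The count of 16 moved when single libraries were left out, while 2.85% of all genes were called in either direction in the full set and 1.36% to 2.45% without single libraries. It was 5 without first exposure replicate 1, 6 without first exposure replicate 2 and 7 without the saliva immune library. It was 8 without 3x replicate 2, 9 without 2x replicate 2 or 3x replicate 1 and 10 without naive replicate 1. Without naive replicate 2 it was 12, and without 2x replicate 1, 2x replicate 3 or 3x replicate 3 it was 14. Without first exposure replicate 3 it rose to 20. Without first exposure replicates 1 and 2 together the count was 1 (1.42% of genes). Among the bitten libraries alone, saliva immune included, it was 7 (1.75% of genes), all among the 16. The adipocyte markers moved with the title series: all 11 lay below 0 and 5 of 11 were called lower (0.757% of all genes). Their summed level was 2565 to 4161 CPM in EF19-4 and 4769 to 11048 CPM in EF19-6, without overlap. The summed endothelial markers were at 117 to 266 CPM against 141 to 527 CPM, with 0 of 10 called, and hair follicle, keratinocyte, fibroblast and muscle lists overlapped between the title series. Immune and blood lists also had medians below 0, at -0.62 for macrophage markers (1 of 11 called, Cd14), -0.77 for mast cell, -0.74 for neutrophil, -0.50 for T cell and -0.78 for erythrocyte markers (0 called in each), and their summed levels overlapped between the title series. A covariate for the hair follicle mean gave 22 called members (4.51% of genes), all 16 among them, and one for the skeletal muscle mean gave 15 (4.32% of genes), 13 of them among the 16. With the adipocyte mean as a covariate, 0 of the 42 members and 0% of all genes were called, while the member median was -1.14. That mean on log2(CPM + 1) was 6.03 to 6.98 in EF19-4 and 7.15 to 8.10 in EF19-6. As it did not overlap, this fit cannot tell adipocyte content from title series. In bulk skin, fewer cells of a type and less RNA per cell cannot be told apart, and the part of the moving cell types in these differences was not tested further.

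The saliva immune library, of which there is 1, gave no test. For 29 of 42 members its level lay within the range of the 3 first exposure libraries (50.7% of all genes do), for 9 below (22.9%) and for 4 above (26.4%), Socs3, Ier3, Rasd1 and Hspa1b. It was below all 8 EF19-6 libraries for 31 members (6.43% of genes) and above them for 0 (13%). First exposure replicates 1 and 2 each lay below the EF19-6 range for 28 members (12.5% and 22.7% of genes), and replicate 3 for 12 (6.69%).

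Within groups the members spread more widely than the median gene. The highest library was a median of 1.9 times the lowest across the 42 members in naive skin (1.23 over all genes), 2.42 times after first exposure (1.49), 2 times in 2x (1.58) and 1.67 times in 3x (1.43). Among first exposure libraries Fosb spanned 142-fold, Fos 45.1-fold, Atf3 40.4-fold and Nr4a1 18.3-fold. Replicate 3 was the highest of the first exposure libraries for each of these 4 genes. The members moved in common: the median Pearson correlation of a member with the mean of the others was 0.89 over 12 libraries, and 0.79 over the 8 libraries of EF19-6. Over 12 libraries 24 members reached 0.8 and 3 were negative, Dusp2 (-0.33), Hspa1b (-0.13) and Hspa1a (-0.03). Within EF19-6 neither first exposure nor the title series enters, but both naive and bitten skin do. There 20 reached 0.8 and 4 were negative, Klf10 (-0.37), Dusp2 (-0.28), Gadd45b (-0.22) and Ier3 (-0.02). These 8 libraries include naive replicate 2, the highest library for 29 members, and its weight in these correlations was not tested. Btg2 (0.99 and 0.97) and Klf6 (0.97 and 0.99) followed the others most closely. These correlations share libraries, depth and tissue composition and are descriptions. Correlated with the mean of the members, 1.25% of tested genes reached 0.8 over 12 libraries and 0.868% over the 8 libraries of EF19-6.

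**Figure D4:**
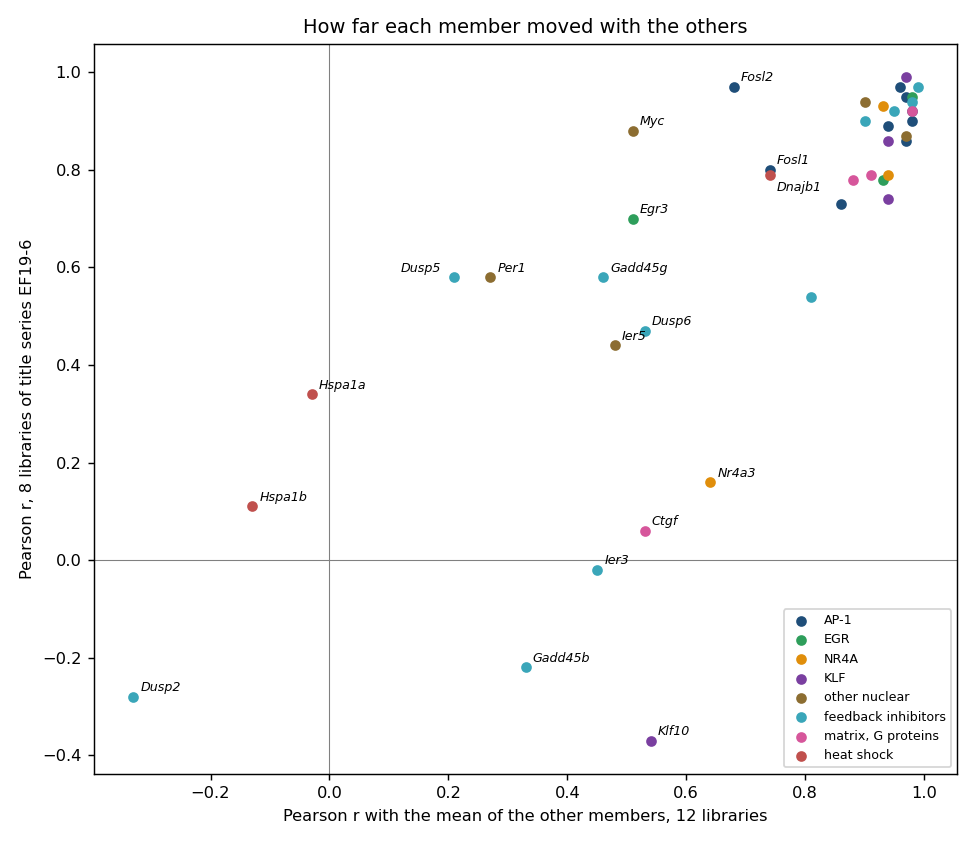
Pearson correlation of each of the 42 members with the mean of the other members over all 12 libraries (horizontal) and over the 8 libraries of title series EF19-6 (vertical). Most points lie at the upper right; Dusp2, Hspa1a and Hspa1b lie below 0 over 12 libraries, and Klf10, Dusp2, Gadd45b and Ier3 lie below 0 within EF19-6.

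Genes outside the list with a closely similar pattern were Ccrl2 (r = 0.96 over 12 libraries), Hbegf, Gem and Tnfaip3 (0.95 each), Nr3c1 and Il7 (0.94), Rgs2 (0.93), Mcl1, Dcn and Nfkbia (0.92), and Spry1, Wrn, Spry2 and Pim3 (0.91). Over the 8 libraries of EF19-6 their r ran from 0.59 (Spry2) to 0.93 (Tnfaip3 and Wrn). Of these genes, Hbegf, Gem, Tnfaip3, Rgs2, Mcl1 and Nfkbia belong to the list of further immediate early genes, and Dcn to the dermal fibroblast markers. Of the 29 tested further immediate early genes, 3 were called lower in EF19-4 (0.757% of all genes). The list median was -0.55, against 0.07 over all genes. Hbegf, a growth factor of the EGF family, was at 14.1 ± 6.75 CPM (SD, n = 4) in EF19-4 and 35 ± 12.2 CPM (SD, n = 8) in EF19-6, and fell by 1.26 (adjusted p = 0.0408). Ptgs2, the inducible cyclooxygenase, was at 7.34 ± 5.99 CPM (SD, n = 4) and 47.8 ± 35.2 CPM (SD, n = 8), and fell by 2.53 (adjusted p = 0.0357). Ppp1r15a, a stress phosphatase subunit, was at 46.2 ± 7.22 CPM (SD, n = 4) and 86 ± 22.3 CPM (SD, n = 8), and fell by 0.86 (adjusted p = 0.0282).

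The other pathway lists held no called gene in any comparison. Between the title series, the median was -0.01 over 19 upstream kinases and factors of the serum response, with Rps6ka3 at 0.09 ± 0.13 (SE, adjusted p = 0.725), and 0.07 over 15 further heat shock genes, with Hsp90ab1 at 0.12 ± 0.12 (adjusted p = 0.607) and Hspa8 at 0.07 ± 0.15 (adjusted p = 0.808). It was 0 over 11 genes of the unfolded protein and integrated stress response, with Hspa5 at 0.18 ± 0.23 (adjusted p = 0.69) and Xbp1 at -0.42 ± 0.16 (adjusted p = 0.196). These lists hold the kinases that switch immediate early genes on and the chaperone genes, and their medians lay near that of all genes (0.07). The median was -0.55 over 12 glucocorticoid response genes, with Pdk4 at -0.14 ± 0.54 (adjusted p = 0.904) and Cdkn1a at 0.03 ± 0.12 (adjusted p = 0.893), -0.17 over 10 hypoxia genes, with Ndrg1 at -0.26 ± 0.18 (adjusted p = 0.461) and Vegfa at -0.61 ± 0.31 (adjusted p = 0.326), and -0.03 over 14 clock genes, with Clock at -0.30 ± 0.16 (adjusted p = 0.33) and Nr1d1 at -0.08 ± 0.35 (adjusted p = 0.91).

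**Figure D5:**
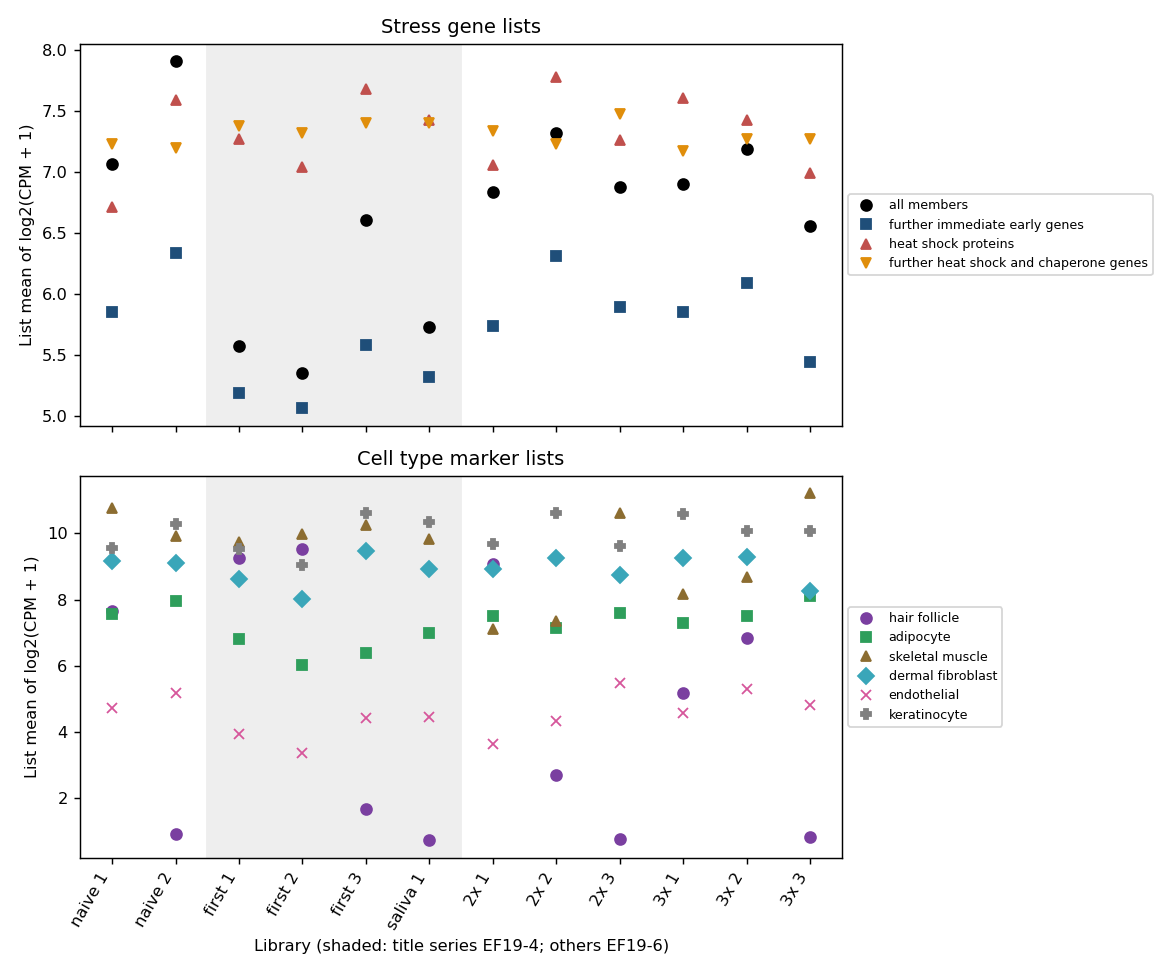
Mean log2(CPM + 1) of stress gene lists (upper panel) and cell type marker lists (lower panel) in each library, with title series EF19-4 shaded. The member mean and the further immediate early genes dip in the shaded libraries, the heat shock lists do not, and the adipocyte mean is lower in all 4 shaded libraries than in all 8 others.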

How the data were processed

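RNA was isolated from skin with a Qiagen RNeasy kit, per the labels. Per the submitters' processing notes, the authors used STAR, Partek 8.0.19 and GRCm38.p6; the counter and annotation were not given in the sources used here. The deposited table gives CPM, with 0.0001 added to every value. Depth was estimated from the CPM worth of 1 read: 73.4% to 79.3% of low values were whole reads within 0.02, too few for a count test.

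Genes reaching 1 CPM in 2 or more libraries were tested on log2(CPM + 1) with limma 3.58.1 in R 4.3.3, a trend in the prior variance and Benjamini-Hochberg adjustment over all 17060 genes (11 libraries, saliva immune left out) or 17172 genes (title series, 12 libraries). A call is an adjusted p below 0.05. Fold changes on this scale understate those of low genes. The scripts were tested on simulated data. Python 3.11.15 made the tables (pandas 2.3.3, with numpy 2.4.6) and the figures (matplotlib 3.10.9).

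Members named with every library were the 3 highest and the widest-ranging of each role, any called member and Fos, Fosb, Egr1, Atf3, Dusp1, Hspa1a, Hspa1b, Socs3 and Per1. Others, such as Dusp2, Ier3 and Myc, were named after their values were seen. Of each pathway list the called genes and the 2 with the highest mean were named, and the 15 non-members most like the member mean; some of these genes are not reported here. The members and lists were chosen with earlier results of these data known. Alternatives were other pseudocounts, filters, scalings, array weights, robust moderation, composition covariates, fewer groups and leaving out each library.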

Additional observations from a re-analysis of the deposited data

Results flagged for a closer look

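In title series EF19-4, 1 library stood far from the rest for 2 members: first exposure replicate 3 was high for Nr4a2 (3.69 on log2(CPM + 1)), where the gap to the next library took 0.83 of the whole range, and for Csrnp1 (6.29), where it took 0.84. In EF19-6, naive replicate 2 was high for Jund (8.72), and the gap took 0.55 of the range over 8 libraries. Of 66 sets of libraries looked at, 3 held such a library; chance alone flags about 1 in 20.

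The change from naive skin differed between repeat and first exposure for Cyr61, by 2.54 on the log2 scale (adjusted p = 0.0485), and for Rasd1, by 1.67 (adjusted p = 0.0469), in the limma test of repeat against first exposure. That test crosses the title series.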

How the results depend on the processing

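Under the alternatives run, no called value changed direction, but the member median of 3x against 2x, -0.09, ran from -0.25 to 0.11 when single libraries were left out. The count of members called moved most with array weights, which gave 25 for first exposure against naive (10.3% of all genes called), 2 for 3x against naive (1.61%), 5 for first exposure, 2x and 3x against naive (2.5%) and 26 for repeat against first exposure (38.8%). Quantile normalization gave 1 for first exposure against naive (0.106% of genes). For repeat against first exposure the count was 1 with a pseudocount of 0.5 (0.551% of genes) and 0 with 0.1 (0.293%). It was 0 with a filter at 5 CPM (0.0522%), 1 with median-of-ratios scaling (0.522%) and 0 with quantile normalization (0.188%). It was 0 with the hair follicle mean as covariate (0.281%) and 1 with only the groups compared (0.479%). For the title series it was 9 with a filter at 5 CPM (1.01% of genes) and 7 among bitten libraries (1.75%). Some alternatives were added after the data were seen. The adipocyte mean as covariate gave 0 for repeat against first exposure (0% of genes) and 0 for the title series (0%). Leaving out first exposure replicates 1 and 2 together gave 1 for the title series (1.42%). Leaving out 1 library at a time gave 0 to 22 called members for first exposure against naive (0% to 3.54% of genes). It gave 0 to 22 for repeat against first exposure (0% to 13.3%) and 5 to 20 for the title series (1.36% to 2.45%). The member median then ran from -0.97 to -0.14 for 3x against naive and from 0.77 to 1.29 for repeat against first exposure. Of 1047 values of single members under alternatives, 827 kept their side of the threshold, 188 lost a call and 32 gained one. These values cover only some members and comparisons. Calls gained elsewhere, as in the counts of 25 and 26 with array weights, are not all among the 32. The title numbers 1, 3 and 5 occur in both first exposure and 2x, and 7 in saliva immune and one 3x library. Fits with this number as a replicate block were added after the data were seen. They called 0 members for 2x against first exposure (0% of genes, median 0.94, over 3 pairs). Between the title series they called 0 members (0% of genes, median -1, over 4 pairs). Without the block the same libraries gave 0 members (0% of genes) in the first case and 0 (0.272% of genes) in the second. Deviations of same-numbered libraries correlated with r of 0.77, -0.54 and 0.59 (numbers 1, 3 and 5) for first exposure and 2x. For the title series r was 0.85, -0.56, 0.51 and 0.18 (numbers 1, 3, 5 and 7). The highest r with another number was -0.46, 0.77 and 0.54 in the first case and -0.13, 0.83, 0.45 and 0.61 in the second. What the number stands for is not stated, so whether same-numbered libraries are paired cannot be told. With 2 naive libraries, 1 saliva immune library and no link between libraries and animals, small differences were not detectable, and first exposure cannot be separated from the title series.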
